A study of Mus musculus with 12 samples.

Results

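The comparison is between the ends of a graded reporter series: LSK cells of the fraction labelled NS-GFP4+ against LSK cells of the fraction labelled NS-GFP1+, which are 6 of the 12 samples, 3 in each fraction. Samples were assigned by the fraction named in the sample titles, and the titles also give replicate numbers 1 to 3. Every sample came from bone marrow of NS-GFP transgenic mice on a C57BL/6 background, in which a part of the NS promoter drives green fluorescent protein (GFP). All groups carry the transgene, so no sample lacks the reporter. Each sample was 10000 sorted LSK cells, and its total RNA was labelled with Cy3 and read on a 1-colour Agilent mouse expression array. The 3 NS-GFP2+ and 3 NS-GFP3+ samples lie between the ends and entered the estimate of the spread. Age, sex and pooling of the mice, and the promoter segment used, are not given in these sources. The labels say that the fractions were cut by GFP level but not which number is brightest, so each direction below is given by fraction number.

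LSK cells lack markers of mature blood lineages and carry the surface proteins Sca-1 and Kit. The gate holds both long-term hematopoietic stem cells, which mostly rest and can rebuild all blood lineages, and multipotent progenitors, which have begun to express genes of the lymphoid or myeloid lineages at a low level while losing the capacity to rebuild blood for long. Stem cells are known by Procr (EPCR) and Slamf1 (CD150), and progenitors by Flt3 and Cd48. NS is read here, from background knowledge and not from the labels, as nucleostemin, a GTP-binding nucleolar protein encoded by Gnl3 that is abundant in stem cells and in dividing cells.

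The promoter of Gnl3 is shown because the reporter rests on it. Those of Vpreb1, Igll1, Cd79a and Blnk are shown because these 4 genes of early B cells fell by large amounts between the ends. They were not picked by size of fall, since Rag1, Vpreb3 and Ebf1 fell by more than Cd79a and Blnk. The 4 windows therefore do not stand for the falling genes as a whole. Vpreb1 and Igll1 encode the surrogate light chain, Cd79a a signalling chain of the B cell receptor, and Blnk the adaptor below that receptor. Each sequence is RefSeq's promoter window on GRCm38.p6, from 250 bases before to 50 bases after the start of the gene, read 5′ to 3′ on the gene's strand. Capitals mark matches to CAGGTG, an E-box that E2A proteins can bind, or its reverse complement CACCTG, and to CCCNNGGG, a spaced pair of half-sites of the kind EBF1 can bind. Both strands were searched, and the motifs do not overlap each other in these windows.
Gnl3, chr14:31019082-31019381, minus strand: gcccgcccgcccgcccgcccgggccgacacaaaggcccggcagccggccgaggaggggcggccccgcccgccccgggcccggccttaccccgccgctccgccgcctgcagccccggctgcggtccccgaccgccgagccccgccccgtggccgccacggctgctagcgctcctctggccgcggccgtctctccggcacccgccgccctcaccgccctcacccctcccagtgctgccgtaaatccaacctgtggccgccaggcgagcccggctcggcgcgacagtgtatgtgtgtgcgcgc
Vpreb1, chr16:16869206-16869505, minus strand: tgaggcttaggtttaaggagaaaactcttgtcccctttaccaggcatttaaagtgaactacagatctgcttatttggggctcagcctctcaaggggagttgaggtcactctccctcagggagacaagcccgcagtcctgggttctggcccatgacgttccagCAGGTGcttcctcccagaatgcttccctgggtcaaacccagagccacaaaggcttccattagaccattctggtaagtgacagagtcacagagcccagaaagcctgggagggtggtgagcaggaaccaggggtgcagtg
Igll1, chr16:16863936-16864235, minus strand: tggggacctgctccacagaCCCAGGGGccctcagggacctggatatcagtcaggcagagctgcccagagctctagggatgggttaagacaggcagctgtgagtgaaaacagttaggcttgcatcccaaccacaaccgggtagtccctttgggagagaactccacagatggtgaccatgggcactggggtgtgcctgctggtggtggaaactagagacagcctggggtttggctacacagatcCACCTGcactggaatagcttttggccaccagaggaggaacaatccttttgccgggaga
Cd79a, chr7:24897247-24897546, plus strand: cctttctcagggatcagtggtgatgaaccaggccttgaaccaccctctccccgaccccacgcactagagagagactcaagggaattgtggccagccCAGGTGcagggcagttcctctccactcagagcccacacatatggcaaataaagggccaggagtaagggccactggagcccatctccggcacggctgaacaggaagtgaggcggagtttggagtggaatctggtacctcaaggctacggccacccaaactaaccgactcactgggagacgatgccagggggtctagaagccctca
Blnk, chr19:40994172-40994471, minus strand: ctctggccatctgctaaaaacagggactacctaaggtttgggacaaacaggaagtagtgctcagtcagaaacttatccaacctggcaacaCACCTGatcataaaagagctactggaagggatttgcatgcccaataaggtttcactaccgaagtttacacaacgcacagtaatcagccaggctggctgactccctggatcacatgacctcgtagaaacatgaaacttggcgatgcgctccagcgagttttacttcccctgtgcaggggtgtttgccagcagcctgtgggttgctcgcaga
The E-box letters lay 88 bases before the start in Vpreb1, 8 in Igll1, 154 in Cd79a and 160 in Blnk, and CCCAGGGG lay 231 bases before the start in Igll1. These letters are common. CAGGTG occurred in 20.2% of 32851 promoter windows and CCCNNGGG in 13.7%. Among windows of genes measured here, CAGGTG occurred in 19.2% for genes lower in NS-GFP4+, 20.8% for genes higher there and 17.1% for the others. Its share was thus smaller for falling than for rising genes, and above that of the others. CCCNNGGG occurred in 21.6% of windows of lower genes, 18.6% of higher genes and 17.3% of the others. For neither motif were these shares tested against each other. The Gnl3 window held neither of these motifs, nor CACGTG, which 7.15% of all windows held.

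The transcript of Gnl3 itself differed little between the ends of the reporter series. Its log2 signal was 10.63, 10.66 and 10.73 on the NS-GFP1+ arrays and 10.36, 10.39 and 10.48 on the NS-GFP4+ arrays. The ranges did not overlap, with NS-GFP4+ the lower, by -0.26 on the log2 scale (SE 0.127). This difference did not pass the test (adjusted p = 0.235 by limma, 0.17 with replicate blocks). The standard error of limma's fit draws on all 4 fractions, and the NS-GFP2+ and NS-GFP3+ means of 10.54 and 10.70 were not in order with the ends. No value for GFP itself was analysed here.

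Between the ends, large changes ran in both directions, with slightly more probes higher in NS-GFP4+. To be tested, a probe had to exceed its array's median signal on all 3 arrays of an end fraction. Of 20631 such probes, 2787 (13.5%) passed an adjusted p of 0.05 in limma's moderated fit. Of these, 1535 (7.44%) were higher and 1252 (6.07%) were lower in NS-GFP4+. The median change of a called probe was 1.59-fold for the higher and 1.54-fold for the lower. The median log2 difference of all tested probes was -0.01. The deposited columns share nearly one distribution (75th percentile 9.18 on every array), so this small median is largely set by their scaling. Scaled instead to spike-in spots labelled E1A, the median was 0.03 and 59.7% of called probes were higher. In the main fit, changes of at least 2-fold were found for 461 higher and 349 lower probes, and of at least 8-fold for 26 in each direction. The same-numbered arrays of the fractions deviated together, and a fit with replicate blocks counted 4573, of which 2531 were higher and 2042 lower, and all 2787 were among them.

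With 1 probe kept for each named gene, 1863 of 11262 genes (16.5%) passed, 1090 (9.68%) higher and 773 (6.86%) lower. The block raised these to 1777 (15.8%) and 1191 (10.6%). The 3 arrays of one end lay wholly to one side of the other 3 for 3808 genes (33.8%). The labels do not say that replicates came from separate mice or sorts, so each p-value reflects only how far these samples spread, and that spread may be technical. In bulk RNA of this kind, fewer cells of a type and less RNA of a gene per cell cannot be told apart.

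**Figure D1:**
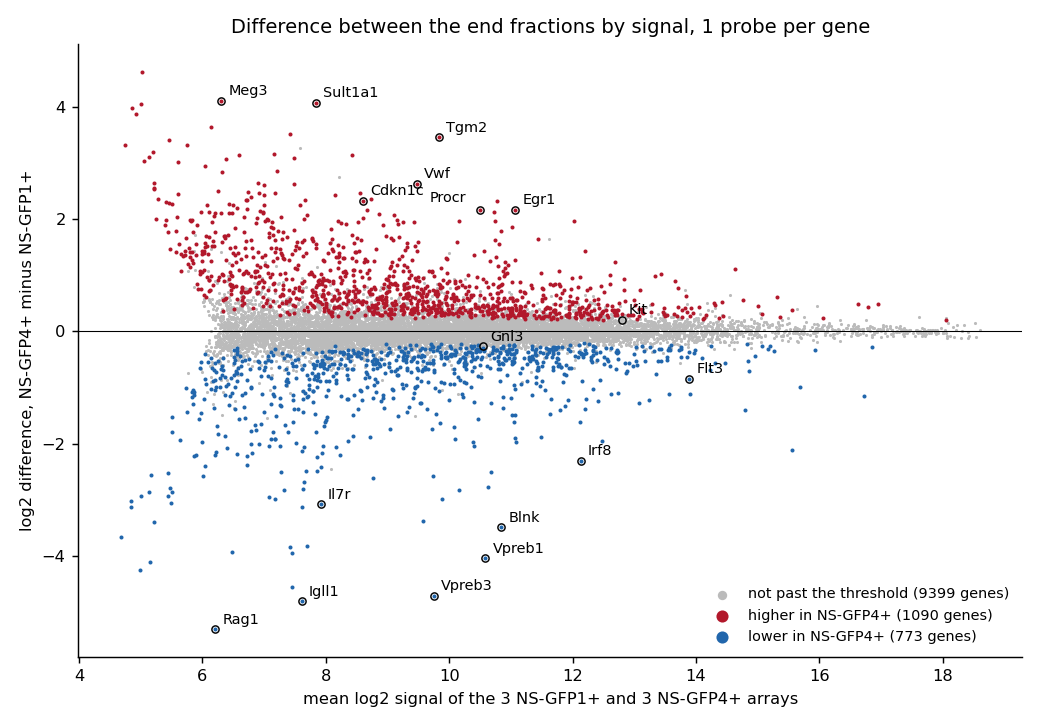
Log2 difference between NS-GFP4+ and NS-GFP1+ (vertical axis) against the mean log2 signal of the 6 end arrays (horizontal axis), 1 point for each of 11262 genes; red points were higher and blue points lower in NS-GFP4+ at an adjusted p under 0.05. Early B cell genes such as Vpreb1, Vpreb3, Igll1 and Rag1 lie at the bottom, Procr, Vwf and Tgm2 lie above 2, and Gnl3 and Kit lie near 0.

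Genes of hematopoietic stem cells were higher in NS-GFP4+. The list held 44 genes, of which 41 had a named probe and 39 passed the filter on dim signals. Of these 39, 30 rose and 0 fell, against 9.68% and 6.86% of all genes, and the median log2 difference was 1.10 against 0.01 for all genes. Some members passed the filter only through the NS-GFP4+ arrays. Among the 29 members above the median on all 6 end arrays, 21 rose and 0 fell, where the background was 8.15% and 5.96% of 10617 genes.

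Procr, the protein C receptor used to sort stem cells, gave one of the most even differences. Its log2 signal was 9.55, 9.26 and 9.42 in NS-GFP1+ and 11.53, 11.67 and 11.55 in NS-GFP4+, so the ends were far apart and each was tight. The rise on the log2 scale was 2.17 ( SE 0.0977, limma adjusted p = 9.52e-07). The middle fractions were graded between them, with means of 10.41 ± 0.0635 (SD, n = 3) in NS-GFP2+ and 10.88 ± 0.149 (SD, n = 3) in NS-GFP3+. Slamf1 was dim: 4.72, 4.73 and 5.09 in NS-GFP1+, below the array median of about 6.12, and 6.25, 6.44 and 6.52 in NS-GFP4+, just above it. Its log2 difference of 1.56 (SE 0.206, limma adjusted p = 0.000554) shrank to 1.17 when 16 was added to every signal, as happens for weak probes.

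The 4 members with the largest differences had NS-GFP1+ means below the array median. Sult1a1, a sulfotransferase, was 5.96, 5.53 and 5.90 in NS-GFP1+ and 10.03, 10.02 and 9.58 in NS-GFP4+, a log2 rise of 4.08 (limma adjusted p = 2.81e-07). Ryk, a Wnt receptor, rose by 3.40 (SE 0.458), from 3.81, 2.50 and 4.93 to 7.04, 7.11 and 7.31. The cation channel gene Trpc6 was 4.19, 4.63 and 6.25 in NS-GFP1+ and 7.71, 7.95 and 8.82 in NS-GFP4+, with replicate 3 the highest at both ends. Hoxb5, a homeobox gene used to mark long-term stem cells in the mouse, was at 2.35, 4.43 and 3.82 in NS-GFP1+ and at 6.39, 6.45 and 6.90 in NS-GFP4+. With 16 added to every signal, the difference of Sult1a1 was 3.74 and that of Hoxb5 was 1.96.

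Regulators and surface proteins of stem cells rose too. Among members singled out after their values were seen, the transcription factor Hlf rose from 11.39, 11.60 and 11.47 to 12.94, 12.83 and 12.99, and Mllt3, which is known to maintain human stem cells, from 6.97, 6.94 and 7.05 to 8.50, 8.61 and 8.69. Both groups of arrays were tight, and neither gene's ranges overlapped. Mecom (Evi1), which stem cells need, was weaker, at 5.86, 4.89 and 4.71 in NS-GFP1+, below the median on all 3 arrays, and 7.35, 7.65 and 6.64 in NS-GFP4+ (limma adjusted p = 0.00195). Vwf, the clotting protein that marks stem cells biased to platelets, was 7.71, 7.58 and 9.18 in NS-GFP1+ and 10.77, 10.52 and 11.08 in NS-GFP4+, a 6.22-fold rise (log2 2.64, SE 0.446, limma adjusted p = 0.00269). Replicate 3 was the highest Vwf array of each end, and the ranges stayed apart. Esam, an endothelial adhesion protein of stem cells, rose 3.84-fold, and Pdzk1ip1, a stem cell marker used in reporter mice, 3.89-fold. Smaller rises were measured for the transcription factors Gata2 (1.70-fold), Tal1 (1.67-fold), Meis1 (1.67-fold) and Hoxb4 (1.37-fold).

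The members that did not pass the test included a protein of the gate and a marker of progenitors. Kit, the receptor for stem cell factor by which the cells were sorted, was 12.54, 12.36 and 13.17 in NS-GFP1+ and 12.85, 12.66 and 13.19 in NS-GFP4+, and the ranges overlapped (log2 difference 0.21, 95% interval -0.29 to 0.71, limma adjusted p = 0.651). Cd34, which progenitors carry and adult mouse long-term stem cells largely lack, was 15.72, 15.71 and 15.84 in NS-GFP1+ and 15.55, 15.56 and 15.58 in NS-GFP4+. The Cd34 ranges did not overlap, yet the difference of -0.20 (SE 0.0698) missed the threshold (limma adjusted p = 0.0983) and passed it under 4 of 21 alternative settings. Clca3a1, Eya1, Gfi1b, Hoxa9, Itga2b, Rarb and Txnip also missed it, with log2 differences between -0.06 and 0.52. For Clca3a1 a second probe did pass, and with the replicate block Gfi1b and Itga2b passed too (limma adjusted p = 0.0235 and 0.0434). No probe was named for Ly6a, the gene of Sca-1.

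**Figure D2:**
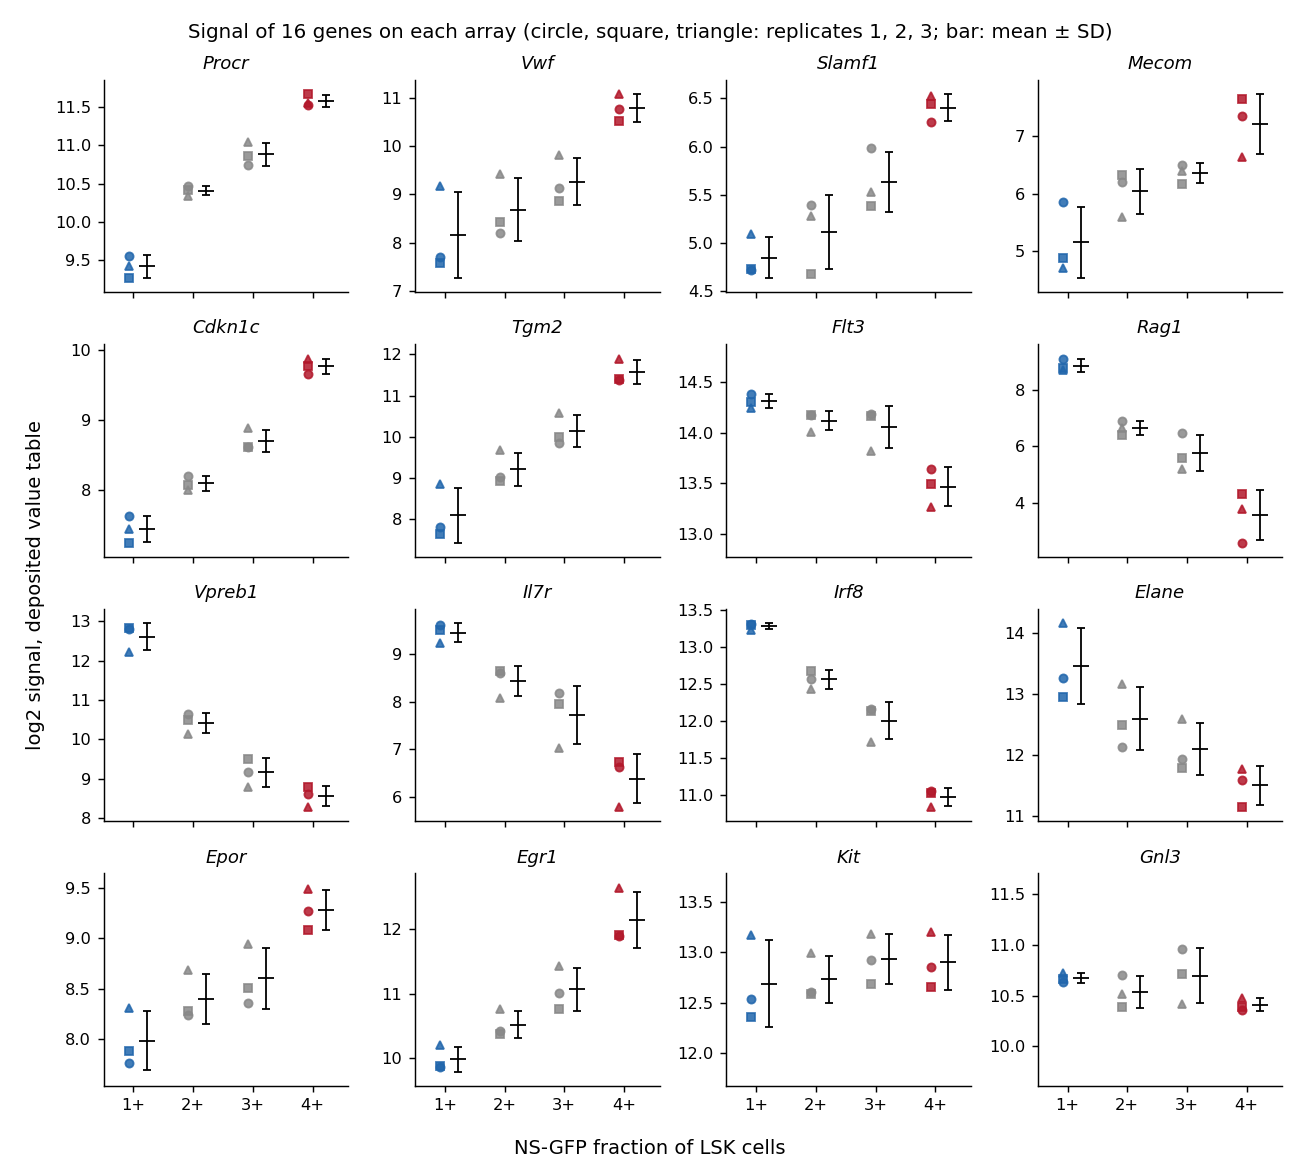
Log2 signal (vertical axes, 1 panel per gene) of 16 genes on each of the 12 arrays by NS-GFP fraction (horizontal axes); circles, squares and triangles are replicates 1, 2 and 3, and bars give the mean ± SD. Procr and Cdkn1c climb and Vpreb1 and Irf8 descend step by step across the fractions, while Kit and Gnl3 stay within a narrow band.

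Genes of lymphoid priming showed the largest falls. All 20 members of the list that had a named probe passed the filter, and 16 of them fell and 0 rose, against 6.86% and 9.68% of all genes, with a median log2 difference of -1.86. Among the 13 members above the median on all 6 end arrays, 9 fell and 0 rose, against a background of 5.96% and 8.15%. The 4 largest falls were of Rag1, Igll1, Vpreb1 and Ebf1, which act at the first steps of B cell development.

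Rag1, whose product cuts antigen receptor genes for rearrangement, was 9.11, 8.76 and 8.71 in NS-GFP1+ and 2.58, 4.31 and 3.78 in NS-GFP4+, a log2 difference of -5.30 (SE 0.412, limma adjusted p = 1.99e-05). All 3 NS-GFP4+ arrays lay below the array median, and the difference was -4.07 with 16 added. Rag2, its partner, fell by 2.41. Igll1 was 10.18, 10.18 and 9.69 in NS-GFP1+ and 5.59, 5.23 and 4.79 in NS-GFP4+, also below the median. Vpreb1 has a near-identical copy that its probe may not separate. Vpreb1 stayed above the array median at both ends, at 12.80, 12.82 and 12.21 in NS-GFP1+ and 8.61, 8.80 and 8.29 in NS-GFP4+. Its fall was 16.5-fold (log2 -4.04, SE 0.228, limma adjusted p = 3.77e-06), and the middle means of 10.42 and 9.17 were in order. Ebf1, the transcription factor that commits cells to the B lineage, was above the median on all NS-GFP1+ arrays and below it on all NS-GFP4+ arrays, with means of 8.45 ± 0.328 and 4.52 ± 0.364 (SD, n = 3 each).

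Other early lymphoid genes fell by less. Blnk was 12.60, 12.71 and 12.44 in NS-GFP1+ and 8.96, 9.17 and 9.14 in NS-GFP4+, an 11.3-fold fall (limma adjusted p = 2.46e-07). Il7r, the receptor that early lymphoid cells need to survive, was 9.62, 9.52 and 9.23 in NS-GFP1+ and 6.62, 6.73 and 5.78 in NS-GFP4+. Dntt, the polymerase that adds bases at receptor gene joints, fell by 2.11 on the log2 scale. The chemokine receptors Ccr9 and Ccr7, which guide lymphoid progenitors and mature lymphocytes, fell by 2.83 and 1.87, and Satb1, a chromatin organiser of lymphoid priming, fell by 1.34.

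The surface markers of multipotent progenitors changed by smaller amounts than the B cell genes. Flt3, the cytokine receptor of lymphoid-primed progenitors, was 14.38, 14.31 and 14.25 in NS-GFP1+ and 13.65, 13.49 and 13.27 in NS-GFP4+, a log2 difference of -0.85 (SE 0.121, limma adjusted p = 0.000906). Only 1 of 3 tested Flt3 probes passed, and the mean of the 3 did not (difference -0.64, limma adjusted p = 0.0981). Cd48 was 13.30, 13.17 and 13.22 in NS-GFP1+ and 12.72, 12.58 and 12.28 in NS-GFP4+, and both of its probes passed. Scaled to the 8 spike-in spots labelled E1A, neither gene passed (limma adjusted p = 0.0608 for Flt3 and 0.246 for Cd48). Ikzf1, Tcf3, Notch1 and Cd27 did not pass the test, with log2 differences between -0.46 and -0.07, although Ikzf1 passed with the block (limma adjusted p = 0.00803).

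Markers of B, T and NK cells were set beside these falls. Of 4 B cell genes with a named probe, Cd79a was 3.82 and Cd79b 0.78 lower on the log2 scale in NS-GFP4+. Ms4a1 (CD20) and Pax5 were below the array median on all 6 arrays. Cd79a is also among the early B cell genes above, so these markers do not separate mature from early B cells. The summed linear signal of the 4 ranged from 4835 to 6521 in NS-GFP1+ and from 2967 to 3007 in NS-GFP4+. Cd79b, with mean log2 signals of 12.28 and 11.50, made up most of this sum. Of 7 T and NK cell genes, Cd3d, Cd8a and Ncr1 lay below the median on all 6 arrays. Klrd1 fell by 4.11 and Nkg7 by 0.32, and the summed signal ranged from 13758 to 14834 in NS-GFP1+ and from 10730 to 12696 in NS-GFP4+. Nkg7, with mean log2 signals of 13.60 and 13.28, made up most of that sum. The part of these cells in the lymphoid falls was not tested.

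Myeloid priming genes fell as well. Of 19 genes, all with a named probe and all past the filter, 13 fell and 1 rose, against 6.86% and 9.68% of all genes. The median log2 difference was -1.16. Among the 18 members above the median on all 6 end arrays, 12 fell and 1 rose, against 5.96% and 8.15%. The 4 largest falls were of Ly86, F13a1, Irf8 and Elane. Ly86, a surface partner of a Toll-like receptor relative, was 11.32, 11.31 and 11.49 in NS-GFP1+ and 8.48, 8.64 and 8.03 in NS-GFP4+ (log2 -2.99, SE 0.232, limma adjusted p = 1.99e-05). F13a1, a clotting factor subunit made by monocyte precursors, fell 5.98-fold. Irf8, the transcription factor of monocyte and dendritic cell fate, was 13.31, 13.31 and 13.24 in NS-GFP1+ and 11.06, 11.03 and 10.84 in NS-GFP4+. The Irf8 arrays of each end were tight and the fall was 4.95-fold (SE 0.122 on the log2 scale, limma adjusted p = 2.51e-06).

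Proteins of neutrophil granules fell too, although less. Elane, neutrophil elastase, was 13.26, 12.96 and 14.16 in NS-GFP1+ and 11.59, 11.14 and 11.77 in NS-GFP4+. Mpo (myeloperoxidase), Ctsg (cathepsin G) and Prtn3 (proteinase 3) fell 2.23-fold, 2.64-fold and 2.04-fold. The receptor of macrophage colony-stimulating factor, Csf1r, fell 3.69-fold on its brightest tested probe, and all 3 of its tested probes were called lower. The transcription factors Cebpa and Spi1 fell 1.96-fold and 1.57-fold. The receptors Csf3r (log2 difference 0.13) and Csf2ra (0.04) and the repressor Gfi1 (0.00) did not pass the test. Cd63, a protein of granules and endosomes that is not restricted to myeloid cells, was the member that rose, by 1.02, and its call was lost without NS-GFP1+ replicate 1, NS-GFP1+ replicate 2 or NS-GFP4+ replicate 3.

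Markers of mature myeloid cells were set beside these falls. None of 7 neutrophil genes passed in limma's fit, against 16.5% of all genes. Of the 7, 1 had an unadjusted p under 0.05 and 1 passed with the block, against 26.4% of all genes. The 95% intervals of 5 of the 7 reached below the log2 difference of Mpo (-1.16). Their summed linear signal ranged from 14982 to 47345 in NS-GFP1+ and from 24741 to 62917 in NS-GFP4+. S100a9 was 14.48, 13.22 and 14.80 in NS-GFP1+ and 14.12, 13.93 and 15.25 in NS-GFP4+, with replicate 3 highest at both ends and the ranges overlapping. Of 7 monocyte, macrophage and dendritic cell genes, Itgax (CD11c) fell 3.99-fold, Cd14 and Adgre1 (F4/80) lay below the median on all 6 arrays, and the summed signal spanned 129409 to 135094 in NS-GFP1+ and 133663 to 134989 in NS-GFP4+. The part of mature myeloid cells in the myeloid falls was not tested. Of 5 mast cell and basophil genes with a named probe, 3 passed the filter. Cpa3 fell 1.87-fold and the other 2 did not pass, against 6.86% lower among all genes. The log2 differences of the 3 ran from -0.91 to 0.19, with a median of -0.05.

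Genes of the megakaryocyte and erythroid lineages rose in part. Of 23 genes, 22 had a named probe and 20 passed the filter, and 8 of these rose and 1 fell, against 9.68% and 6.86% of all genes, with a median log2 difference of 0.75. With the block, 14 rose and 2 fell, against 15.8% and 10.6%. Leaving out NS-GFP1+ replicate 1 or 2, or NS-GFP4+ replicate 1 or 3, brought the rises to 5. Among all tested probes, calls higher in NS-GFP4+ also dropped in these fits, from 1535 to between 1061 and 1166. The largest called rise was of Epor, the erythropoietin receptor, at 7.99 ± 0.289 in NS-GFP1+ and 9.28 ± 0.200 in NS-GFP4+ (SD, n = 3 each), a 2.45-fold rise (SE 0.194 on the log2 scale, limma adjusted p = 0.00128). Zfpm1, a cofactor of GATA1, rose 1.74-fold, Itgb3, an integrin chain of platelets and stem cells, 1.95-fold, and the carbonic anhydrase Car2 1.99-fold. Tfrc, the transferrin receptor that brings iron into dividing and erythroid cells, was the member that fell, by 1.00 (limma adjusted p = 0.000373). Only 1 of 2 tested Tfrc probes passed.

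Platelet genes varied strongly between replicates. Pf4, a platelet chemokine, averaged 10.8 ± 0.866 in NS-GFP1+ and 12.4 ± 0.596 in NS-GFP4+ (SD, n = 3 each), and its log2 difference of 1.64 passed only with the block (limma adjusted p = 0.12 without and 8.09e-05 with it). Gp9 and Treml1, with log2 differences of 0.84 and 0.97, also passed only with the block (limma adjusted p = 0.000255 and 0.000186). The beta-globin gene Hbb-b1 rose 2.36-fold (limma adjusted p = 0.00472), and Hba-a1, its alpha partner, had a log2 difference of 0.48 with overlapping ranges. The 5 erythroid marker genes summed to between 7266 and 8437 in linear signal in NS-GFP1+ and between 12999 and 18142 in NS-GFP4+. Hbb-b1, with mean log2 signals of 12.07 and 13.30, was a large part of this sum. Alas2, a defining gene of red cell precursors, stayed near the array median. The globins have near-identical gene copies that a probe may not separate, and the part of erythroid cells in these rises was not tested.

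Several homeobox genes rose with the stem cell genes. Of 28 Hox and leukaemia related factors, 26 had a named probe and 20 passed the filter. Of these, 10 rose and 1 fell, against 9.68% and 6.86% of all genes, with a median of 0.37. Some members passed the filter only through the NS-GFP4+ arrays. Among the 18 members above the median on all 6 end arrays, 8 rose and 1 fell, against 8.15% and 5.96%. Hoxb5, Hoxb4, Hoxa9 and Meis1 are also in the stem cell list. Hoxb2 was 5.47 ± 0.353 in NS-GFP1+, below the median, and 7.66 ± 0.267 in NS-GFP4+ (SD, n = 3 each). Hoxa10 rose 2.39-fold (SE 0.145 on the log2 scale, limma adjusted p = 0.00023), and Hoxa6 2.03-fold. Pbx3, a partner of Hox proteins, rose by 0.85, and Lmo2, an adaptor in stem cell transcription complexes, by 0.56. Hoxa7 and Hoxa9, at log2 differences of 0.16 and 0.29, and Runx1, Myb and Bmi1, at -0.33, -0.13 and -0.16, did not pass the test, except Runx1 with the block (limma adjusted p = 0.0419). Evi2a was the member that fell, by 0.93. Without NS-GFP1+ replicate 2 or NS-GFP4+ replicate 2 the rises numbered 5, and without NS-GFP1+ replicate 1 or NS-GFP4+ replicate 3 they numbered 6. Among all tested probes, calls higher in NS-GFP4+ also dropped in these fits, from 1535 to between 1061 and 1123.

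Some receptors for homing and contact were lower. Of 20 adhesion and niche genes, 19 had a named probe and 18 passed the filter. Of these, 8 fell, 3 rose and the others did not pass, against 6.86% lower and 9.68% higher of all genes, with a median of -0.16. Among the 17 members above the median on all 6 end arrays, 8 fell and 2 rose, against 5.96% and 8.15%. Itgal, the LFA-1 integrin chain of leukocytes, was 9.19 ± 0.0896 in NS-GFP1+ and 7.70 ± 0.238 in NS-GFP4+ (SD, n = 3 each), a 2.81-fold fall (limma adjusted p = 0.000123). Selplg, the ligand of P-selectin, fell by 0.56, Cd47, which protects cells from being engulfed, by 0.48, and Cxcr4, the receptor of the niche chemokine CXCL12, by 0.46. Pecam1, an adhesion protein of endothelium and blood cells, fell by 0.87. Jam3, a junctional protein of stem cells, rose most, from 5.77 ± 0.253 to 8.64 ± 0.0255 (SD, n = 3 each), and S1pr1, the receptor that guides exit from bone marrow, rose by 0.64. On the E1A scale, where 1124 of 20631 probes passed, only 1 adhesion gene rose and 1 fell. Of 6 endothelial and stromal markers with a named probe, Emcn rose by 0.68, Pecam1 fell as given above, and Col1a1 was below the median on all 6 arrays. Their summed signal ranged from 3116 to 11038 in NS-GFP1+ and from 4284 to 8583 in NS-GFP4+.

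The growth factor, Wnt and Notch list split. Of 27 genes, 23 had a named probe and 20 passed the filter. Of these, 3 rose and 5 fell, against 9.68% and 6.86% of all genes. With the block 6 rose and 5 fell, against 15.8% and 10.6%. Among the 16 members above the median on all 6 end arrays, 2 rose and 3 fell, against 8.15% and 5.96%. Lef1, a Wnt pathway transcription factor of lymphoid precursors, was 9.17 ± 0.305 in NS-GFP1+ and 6.04 ± 0.208 in NS-GFP4+ (SD, n = 3 each), a log2 fall of 3.13 (limma adjusted p = 3.45e-06). The inhibitors of DNA binding Id3 and Id2 fell by 2.80 and 1.58, Smad7, an inhibitor of TGF-beta signalling, by 0.74, and the ligand gene Tgfb1 by 0.32. The Wnt receptor gene Fzd4 rose by 2.39 from below the median, the co-receptor gene Tgfbr3 by 1.51, and Smad6, an inhibitor of BMP signalling, by 0.77. The TGF-beta receptors Tgfbr1 and Tgfbr2 and the mediators Smad2, Smad3 and Smad4 did not pass the test, at log2 differences between -0.25 and 0.26, and of these Smad3 passed with the block (limma adjusted p = 0.0113).

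Some immediate early genes, which respond to stimuli within minutes, were higher in NS-GFP4+. Of 18 genes, 15 passed the filter and 5 rose, against 9.68% of all genes, with 9 rising under the block, against 15.8%, and 0 falling in either fit. Egr1, a zinc finger factor that is also in the stem cell list, was 9.86, 9.88 and 10.21 in NS-GFP1+ and 11.89, 11.91 and 12.65 in NS-GFP4+, a 4.49-fold rise (SE 0.227 on the log2 scale, limma adjusted p = 0.000127). The orphan receptors Nr4a2 and Nr4a1 rose 2.46-fold and 1.87-fold, Dusp1, a phosphatase of MAP kinases, 1.91-fold, and Jun 1.39-fold. Fos did not pass, at a log2 difference of 0.53, and was variable at both ends (SD 0.514 in NS-GFP1+ and 0.600 in NS-GFP4+, n = 3 each); it passed with the block (limma adjusted p = 0.00184). Junb and Klf2 did not pass either, at 0.19 and 0.23. Without NS-GFP1+ replicate 1, NS-GFP4+ replicate 1 or NS-GFP4+ replicate 3, the rises numbered 3. Among all tested probes, calls higher in NS-GFP4+ also dropped in these fits, from 1535 to between 1061 and 1166.

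Genes of the dividing cell changed by small amounts, with log2 differences between -0.59 and 0.42. Of 34 cell cycle genes, 32 had a named probe and 31 passed the filter, and 4 rose and 0 fell, against 9.68% and 6.86% of all genes, with a median of 0.12. Mki67, the standard proliferation marker, was 13.78, 13.73 and 14.07 in NS-GFP1+ and 14.14, 13.95 and 14.17 in NS-GFP4+, and the ranges overlapped (log2 difference 0.23, limma adjusted p = 0.239). The 6 minichromosome maintenance genes Mcm2 to Mcm7, which license DNA replication, had differences between -0.07 and 0.18. The called rises were small: Birc5 (survivin) 1.34-fold, Bub1, a checkpoint kinase, 1.24-fold, and the transcription factors E2f1 and Foxm1 1.22-fold and 1.19-fold. Only 1 of 3 Birc5 probes and 1 of 2 Foxm1 probes passed. The block gave 9 rises and 1 fall, against 15.8% and 10.6% of all genes. The E1A scale, on which only 1124 of 20631 probes passed, gave 0 of either. Leaving out any 1 array other than NS-GFP1+ replicate 3 gave 1 or 2 rises. Among all tested probes, calls higher in NS-GFP4+ also dropped in these fits, from 1535 to between 1061 and 1166. The widest 95% interval among the tested members had a half-width of 0.44 on the log2 scale.

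Among inhibitors of the cell cycle, 1 gene stood out. Cdkn1c (p57), the inhibitor that keeps adult stem cells at rest, was 7.63, 7.25 and 7.44 in NS-GFP1+ and 9.66, 9.78 and 9.88 in NS-GFP4+, a 5.03-fold rise (log2 2.33, SE 0.115, limma adjusted p = 1.74e-06). Its values climbed across the fractions, with middle means of 8.09 and 8.70. Of the 21 inhibitor and quiescence genes past the filter, out of 26 listed, 2 rose and 2 fell, against 9.68% and 6.86% of all genes. The second rise was of Gadd45g, a stress response gene, by 0.37. The falls were of Trp53inp1, a p53 target, by 0.73, on only 1 of its 2 tested probes, and of Foxo1 by 0.31. The related inhibitors Cdkn1a (p21) and Cdkn1b (p27) did not pass the test, at log2 differences of -0.52 and -0.10, nor did Foxo3 at -0.22. With the block, Cdkn1a was called lower (limma adjusted p = 0.00323).

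Nucleolar and ribosome biogenesis genes, the group to which Gnl3 belongs, showed no called change in limma's fit. All 30 were tested and 0 passed, against 16.5% of all genes. An unadjusted p under 0.05 was found for 3, against 3292 of all 11262 genes. With the block 2 fell, against 10.6% of all genes. Their median log2 difference was -0.07. The relatives Gnl2 and Gnl3l had differences of 0.00 and 0.24, the nucleolar proteins Ncl and Npm1 -0.07 each, and Fbl, which methylates ribosomal RNA, 0.13. Myc, a driver of ribosome production, was 12.15, 12.06 and 12.11 in NS-GFP1+ and 11.93, 11.78 and 11.42 in NS-GFP4+, lower on every array but past the threshold only with the block (limma adjusted p = 0.257 without and 0.0392 with it). Rrs1, a ribosome assembly factor, was the other gene called with the block (limma adjusted p = 0.0328). The widest interval in the list had a half-width of 0.53.

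Few metabolic genes were called. None of 18 oxidative phosphorylation genes passed, against 16.5% of all genes. Of the 18, 0 had an unadjusted p under 0.05, and 1, Uqcrc1, fell with the block, against 10.6% of all genes. Of 18 glycolysis and hypoxia genes with a named probe, 2 rose and 0 fell, against 9.68% and 6.86% of all genes. With the block 3 rose and 1 fell, against 15.8% and 10.6%. Slc2a3 rose 1.65-fold, from 10.56, 10.37 and 10.49 to 11.20, 11.22 and 11.17 (limma adjusted p = 6.31e-05). Slc2a1 rose 1.46-fold (limma adjusted p = 0.0401), a call lost when only the 6 end arrays were fitted (limma adjusted p = 0.119). Both encode glucose transporters. Gapdh, at 16.91, 16.89 and 16.96 against 16.93, 16.92 and 16.98, differed by 0.02. Of 23 tested interferon response and MHC genes, 4 rose and 1 fell, against 9.68% and 6.86% of all genes, and 8 rose and 3 fell with the block, against 15.8% and 10.6%. Gbp2, Ifit3, Oasl2 and Nlrc5 rose by 0.25 to 0.64, Mx1 fell by 0.62, and the transplantation antigen H2-K1 and B2m did not pass, at 0.25 and 0.16, although H2-K1 passed with the block (limma adjusted p = 0.0241). The call counts of the interferon list fell to 0 of either direction on the E1A scale, where 1124 of 20631 probes passed.

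**Figure D3:**
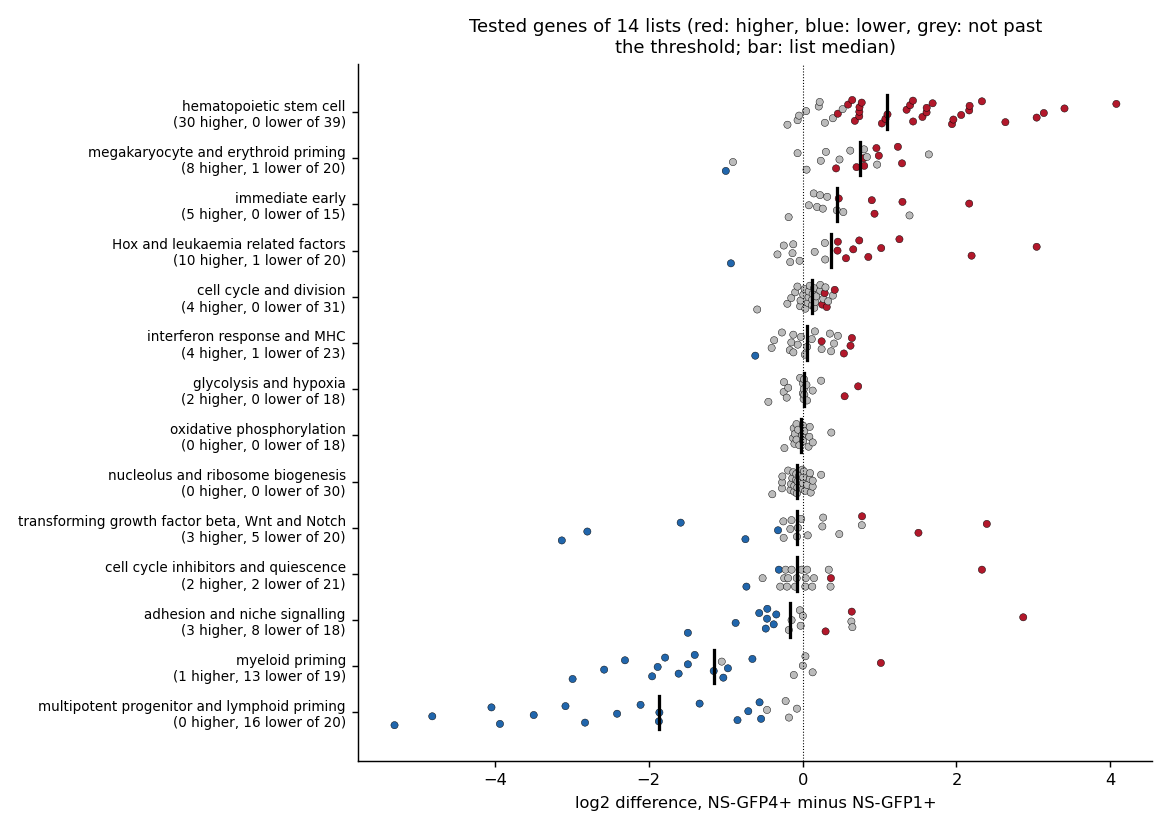
Log2 difference between NS-GFP4+ and NS-GFP1+ (horizontal axis) for each tested gene of 14 lists (rows); red and blue points rose and fell at an adjusted p under 0.05, grey points did not pass, and the bar is the list's median. The stem cell list sits to the right with a median of 1.10, the lymphoid and myeloid lists to the left with medians of -1.86 and -1.16, and the nucleolar and oxidative phosphorylation lists cluster at 0.

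Outside the lists, the largest rises among genes with both end means above the array median were led by Tgm2, transglutaminase 2, which cross-links proteins. It was 7.81, 7.64 and 8.86 in NS-GFP1+ and 11.39, 11.41 and 11.90 in NS-GFP4+, an 11.1-fold rise (log2 3.47, SE 0.33, limma adjusted p = 6.89e-05). Npdc1 followed, at 6.17, 6.24 and 8.14 in NS-GFP1+ and 9.64, 9.75 and 10.63 in NS-GFP4+. Replicate 3 stood above the other 2 at both ends, and without NS-GFP1+ replicate 1 the Npdc1 call was just lost (limma adjusted p = 0.051). Myo1d, an unconventional myosin, shared this pattern: it rose 5.41-fold and lost its call without NS-GFP1+ replicate 1 or 2 or NS-GFP4+ replicate 3, at adjusted p between 0.0727 and 0.0748. Nupr1, a stress-induced chromatin protein, rose 6.19-fold, Cavin3, a coat protein of caveolae, 5.52-fold, Hid1 5.15-fold, Pgap4 5.10-fold and 2310065F04Rik 5.03-fold. The Hid1 arrays were among the tightest, at 7.59, 7.75 and 7.32 against 9.95, 9.85 and 9.95.

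The 10 largest falls with both end means above the array median included Vpreb1, Blnk, Il7r and Ly86, described above. Replicate 3 of NS-GFP4+ lay below the median for Il7r (5.78), Ifi209 (5.81) and Cmah (5.78). Vpreb3, a chaperone of the pre-B cell receptor, was 12.30, 12.25 and 11.77 in NS-GFP1+ and 7.47, 7.41 and 7.30 in NS-GFP4+, a 26.2-fold fall (log2 -4.71, SE 0.163, limma adjusted p = 2.46e-07). Ly6d, a surface marker of B-biased lymphoid progenitors, was 11.42, 11.32 and 11.08 in NS-GFP1+ and 7.98, 8.05 and 7.65 in NS-GFP4+, a 10.4-fold fall. Bfsp2, a filament protein of the eye lens, fell 7.11-fold. Ifi209, an interferon-induced gene, fell 7.05-fold on its brightest probe, and all 3 of its probes were called lower. Cox6a2, a muscle-type subunit of cytochrome oxidase, fell 6.81-fold, and Cmah, which makes a sialic acid, 6.41-fold. In each of the genes named here the NS-GFP4+ arrays lay wholly below the NS-GFP1+ arrays.

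A further 127 genes rose from below the array median on all 3 NS-GFP1+ arrays, and 78 fell to below it on all 3 NS-GFP4+ arrays. Clip3, a protein of microtubules and the trans-Golgi network, was 2.75, 2.77 and 2.58 in NS-GFP1+, near the bottom of the range, and 7.16, 7.12 and 7.70 in NS-GFP4+. Meg3, an imprinted noncoding RNA, was 4.23, 4.25 and 4.26 in NS-GFP1+ and 8.02, 7.87 and 9.19 in NS-GFP4+, a log2 difference of 4.11 that was 3.31 with 16 added. Pde6h and Skint3 rose by 4.05 and 3.98, to 2.59 and 2.49 with 16 added. Among the falls, Gfra2, a receptor subunit for the growth factor neurturin, was 9.95, 9.87 and 9.36 in NS-GFP1+ and 5.06, 5.48 and 4.98 in NS-GFP4+. Chst3, a chondroitin sulfotransferase, had a log2 difference of -4.25 (-2.72 with 16 added), and Klrd1, an NK cell receptor chain, one of -4.11 (-2.71 with 16 added). The files used here hold no detection flags, so whether such signals stand above background is unknown and these folds have no bound.

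Over the signal range, calls were rarest among the dimmest probes and most frequent in the upper middle. With all 42022 probes fitted and split into eighths by mean signal, 0.209% of the dimmest eighth passed, and the share was 2.28% in the next, 8.59% in the fifth, 9.79% in the sixth, 9.59% in the seventh and 6.11% in the brightest. The median size of called differences was 0.47 on the log2 scale in the dimmest eighth, with 11 probes called, then 1.65 in the second, 1.83 in the third, 1.08 in the fifth and 0.52 in the brightest. The median standard error was 0.121 in the dimmest eighth, 0.455 in the second and 0.0894 in the brightest. Rises and falls were both present in every eighth, with 293 rises and 221 falls in the sixth and 275 and 229 in the seventh.

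**Figure D4:**
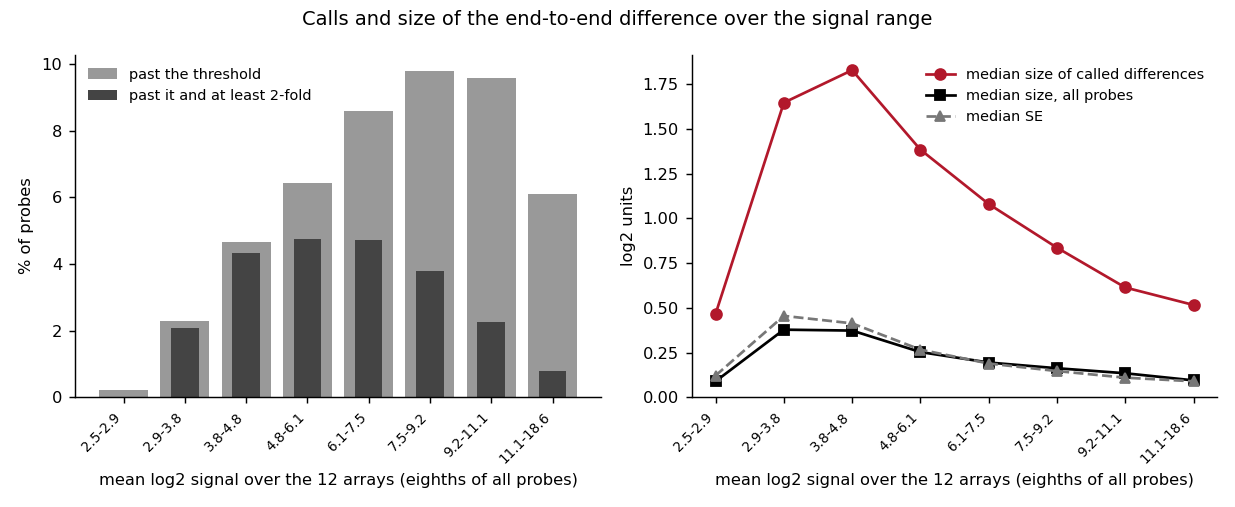
Calls and sizes over eighths of all 42022 probes ordered by mean log2 signal over the 12 arrays (horizontal axes). Left, the percentage of probes past the threshold and the percentage also changed at least 2-fold; right, the median size of called differences, of all differences and of the standard error, on the log2 scale. The share called peaks at 9.79% in the sixth eighth, while the size of called differences is 0.47 in the dimmest eighth, 1.83 in the third and 0.52 in the brightest.

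The middle fractions lay between the ends for most called genes. The 4 fraction means were in order, rising or falling throughout, for 86.3% of the 1863 called genes, against 31.7% of all 11262 genes. Because the end fractions chose the called genes, the ends being far apart makes an ordered middle more likely, and this share is a description. Of 82 genes named by the fixed rule, 75 had their means in order and 81 had end arrays that did not overlap. These counts also follow from the selection, since the rule mostly names called genes. The end arrays did not overlap for 1860 of the 1863 called genes, against 3808 (33.8%) of all 11262 genes. Flt3 shows a late change, with means of 14.31, 14.12, 14.06 and 13.47 from NS-GFP1+ to NS-GFP4+, whereas Vpreb3 shows its largest step first, with means of 12.10, 9.39, 8.30 and 7.39.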

How the data were processed

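The deposited value table holds log2 values for 42071 rows, 42022 probes and 49 control spots, and its normalization is not given in the sources used here. Array medians were 6.11 to 6.12. Each column ranked its probes as that array's deposited signal intensity did, except NS-GFP3+ replicate 3, whose intensity file copies that of NS-GFP2+ replicate 3. Scale is log2, direction is settled by 1 colour, and genes were not centred. Probe names came from the platform annotation, updated to RefSeq: 24406 probes had 1 gene and 17616 are unnamed here.

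A probe was tested if all 3 NS-GFP1+ or all 3 NS-GFP4+ arrays exceeded their own median there, since the files used here hold no detection flags. Limma 3.58.1 in R 4.3.3 fitted 4 fraction means to 12 arrays (8 residual degrees of freedom), with Benjamini-Hochberg adjustment over 20631 probes and a threshold of 0.05. A gene is represented by its tested probe with the highest mean. The small number of arrays limits the precision. On simulated data of this size, 81 of 100 changes of 2-fold and 100 of 100 of 4-fold were recovered, with 6 false calls. The simulated arrays varied independently and held far fewer changed probes than were called here. These shares are therefore no measure of power in the real arrays.

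Same-numbered arrays of the end fractions deviated together (r = 0.278, 0.441 and 0.677), so the replicate number was also fitted as a block. Replicate 3 stood apart most: arrays 1 and 2 also correlated across numbers (0.417 and 0.369).

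The comparison and the gene lists were chosen with earlier results of these data known. Genes named by rule include the 10 largest called rises and falls with both end means above the average array median of 6.12. Single arrays could lie below it, as for Nupr1 and Il7r. The rule also names the 5 largest from or to below the median on all 3 arrays, up to 4 called genes per list, and 8 fixed genes. Others were singled out after their values were seen. Alternatives were other scalings, filters, an added signal of 16, array weights, a trend, the mean of a gene's probes and leaving out each array. Figures were drawn with matplotlib 3.10.9.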

Additional observations from a re-analysis of the deposited data

How the results depend on the processing

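No setting reversed the difference of a called gene named by rule, and reversals were not counted for other called probes. Of 79 called genes named, 53 kept sign and call in all of 21 alternative settings that tested them, and 123 of 1623 pairs of gene and setting lost the call. Those that most often lost it were Foxm1, Gadd45g, Slc2a1, Hoxa6 and E2f1. The probe count of 2787 rose to 4573 (2531 higher, 2042 lower) with the replicate block and, with array weights, to 5140 (2698 higher, 2442 lower). The per-array files scaled to the 75th percentile with the block gave 4319 (2252 higher, 2067 lower), a setting chosen after seeing the data. Scaling to the spike-in spots labelled E1A gave 1124 (671 higher, 453 lower). Asking for at least a 2-fold change, also chosen after seeing the data, left 810 (461 higher, 349 lower). The cause of the other shifts was not tested. Leaving out each array in turn gave 1955 to 2909 probes (1061 to 1691 higher, 894 to 1218 lower). The higher share of calls stayed between 51.2% and 59.7%. The gene count was 1863 by 1 probe and 2196 by the mean of a gene's probes. The block changed calls of named genes only where stated beside them. Signal limits the dim probes, where no flag gives a background, and 3 arrays per fraction limit small changes.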

Other observations

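A pair of gene families stood out among the genes higher in NS-GFP4+, and both were chosen after their values were seen, so no test is given for either. The Bex and Tceal genes, small proteins encoded side by side on the X chromosome and relatives of a transcription elongation factor, were one. Of 11 with a tested probe, 6 rose and 1 fell, against 9.68% and 6.86% of all genes. Of the 7 above the median on all 6 end arrays, 3 rose and 1 fell, against 8.15% and 5.96%. Bex1 was 9.07, 9.02 and 9.42 in NS-GFP1+ and 11.07, 11.04 and 11.29 in NS-GFP4+. Bex4 rose 4.22-fold, Tceal5 4.28-fold and Tceal6 6.25-fold. Bex6, the member on chromosome 16, was the one that fell, from 11.07, 10.96 and 11.06 to 9.56, 9.78 and 9.97.

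Imprinted genes, which are expressed from 1 parental copy, were the other family. Of 16 listed, 14 had a named probe and 11 were tested, and 7 of these rose and 0 fell, against 9.68% and 6.86% of all genes. Of the 7 above the median on all 6 end arrays, 3 rose and 0 fell, against 8.15% and 5.96%. Grb10, an inhibitor of growth factor receptors, rose 7.13-fold, from 4.83, 5.18 and 4.68, below the median, to 7.88, 7.78 and 7.53. Dlk1, a Notch ligand relative beside Meg3 on chromosome 12, rose 2.80-fold, Sgce 2.05-fold and Igf2r 1.63-fold. Ndn rose 3.06-fold, from 5.62, 5.81 and 6.25 to 7.18, 7.40 and 7.94, and Cdkn1c and Meg3, described above, are the remaining members that rose. H19 was below the median on all NS-GFP1+ arrays, at 5.59, 2.52 and 3.18, and was not tested, because 1 NS-GFP4+ array (5.81) was also below it.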
